A study of Mus musculus with 6 samples.

Results

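The transcripts of the ubiquitin-conjugating (E2) enzymes were followed in mouse oocytes at metaphase II (MII), where an ovulated oocyte is arrested until fertilisation. Members were all genes whose symbol begins with Ube2 and a further letter, with pseudogenes marked "-ps" left out. The rule found 32 members among the 14165 genes of the count table of pooled oocytes, and 40 among the 54658 genes of the count table of single oocytes, including the same 32. Ube2cbp, whose synonym is Ube3d, is known as an E3 ligase that binds an E2. Ube2uos is annotated as an antisense RNA, and Ube2d4 and Ube2nl are annotated as processed pseudogenes, so these symbols share the E2 name without a known E2 activity.

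The polyadenylated RNA was read by Smart-seq2, which amplifies full-length cDNA by PCR, and no molecular identifiers were named. The first sample held 59 single oocytes from aged mice and the second 35 single oocytes from young mice, neither with a treatment named. The other 4 samples were pools of 10 young oocytes, 2 given control short interfering RNA (siCtrl) and 2 given short interfering RNA against Plat (siPlat), the gene of tissue plasminogen activator. The labels gave neither strain, ages in months nor animals, so each p-value covers only the spread among these libraries, which may be technical.

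E2 enzymes form the middle step of a chain. An E1 enzyme activates ubiquitin or a related small protein, an E2 takes it over on a cysteine, and an E3 ligase brings the loaded E2 to its target. The E2 often sets which lysine of ubiquitin the growing chain uses, and so whether the target goes to the proteasome or serves in signalling. In an MII oocyte the anaphase-promoting complex (APC/C), an E3 that works with Ube2c and Ube2s, is held inactive until fertilisation, when it marks cyclin B and securin for destruction.

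Gene counts per pool lay between 12142884 and 17475952, and those per single oocyte between 2018226 and 11894782. Plat stood at 441 and 439 CPM (counts scaled to a total of 1000000 per library) in the siCtrl pools and at 51.4 and 39.0 CPM in the siPlat pools, 9.74-fold lower (edgeR quasi-likelihood test, Benjamini-Hochberg adjusted p = 6.2e-06). All 8 oocyte markers checked had counts in every group. Of the 59 aged libraries, 21 stood apart: mitochondrially encoded genes took 6.78% to 61.6% of their gene counts, against at most 2.97% in the other 38 and at most 1.92% in the young. In these 21 the summed oocyte markers lay between 628 and 2993 CPM, below the 13318 to 22288 CPM of the other 38 aged oocytes. Results between the ages are therefore given with and without the 21 libraries.

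In young oocytes, the 8 leading E2 transcripts included Ube2t, Ube2d3, Ube2h, Ube2d2a, Ube2g2, Ube2k and Ube2c. Levels are compared between genes as CPM per kilobase of annotated exons (CPM per kb). Ube2t, the E2 of the Fanconi anaemia pathway that repairs crosslinked DNA, had the highest median at 114 CPM per kb, with a lowest oocyte at 84.5 and a highest at 191. Ube2d3, a broad-range E2 that works with many E3 ligases, followed with a median of 80.4 CPM per kb and a range of 62.6 to 106. Ube2h, the E2 of the CTLH (GID) ligase, had a median of 80.1 CPM per kb and a wider range of 50.1 to 194. In Drosophila the CTLH complex with this E2 is known to clear maternal proteins at the passage from egg to embryo. The ranges of these 3 genes overlapped, so their order rested on medians within the spread between oocytes.

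Ube2d2a, a close relative of Ube2d3, had a median of 51.9 CPM per kb (40.7 to 66.2), and Ube2g2, which serves the breakdown of misfolded proteins of the endoplasmic reticulum, 47.3 CPM per kb (15.5 to 72.1). Its lowest oocyte lay below the lowest of the other leading members named here. Ube2k, which builds Lys48-linked chains, had a median of 46.6 CPM per kb (33.3 to 62.9), and Ube2c, which starts chains on APC/C targets, 41.5 CPM per kb (20.4 to 75.0). Of the exon bases of Ube2c, 22.8% overlap Tnnc2 on the opposite strand, and 10.3% of those of Ube2g2 overlap other genes. The strand setting of the counts is not known, so reads of overlapping genes may be mixed. From Ube2d2a to Ube2c each range overlapped that of its neighbours. Ube2s, which extends the chains that Ube2c begins, came further down at 23.3 CPM per kb (12.9 to 60.0).

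**Figure D1:**
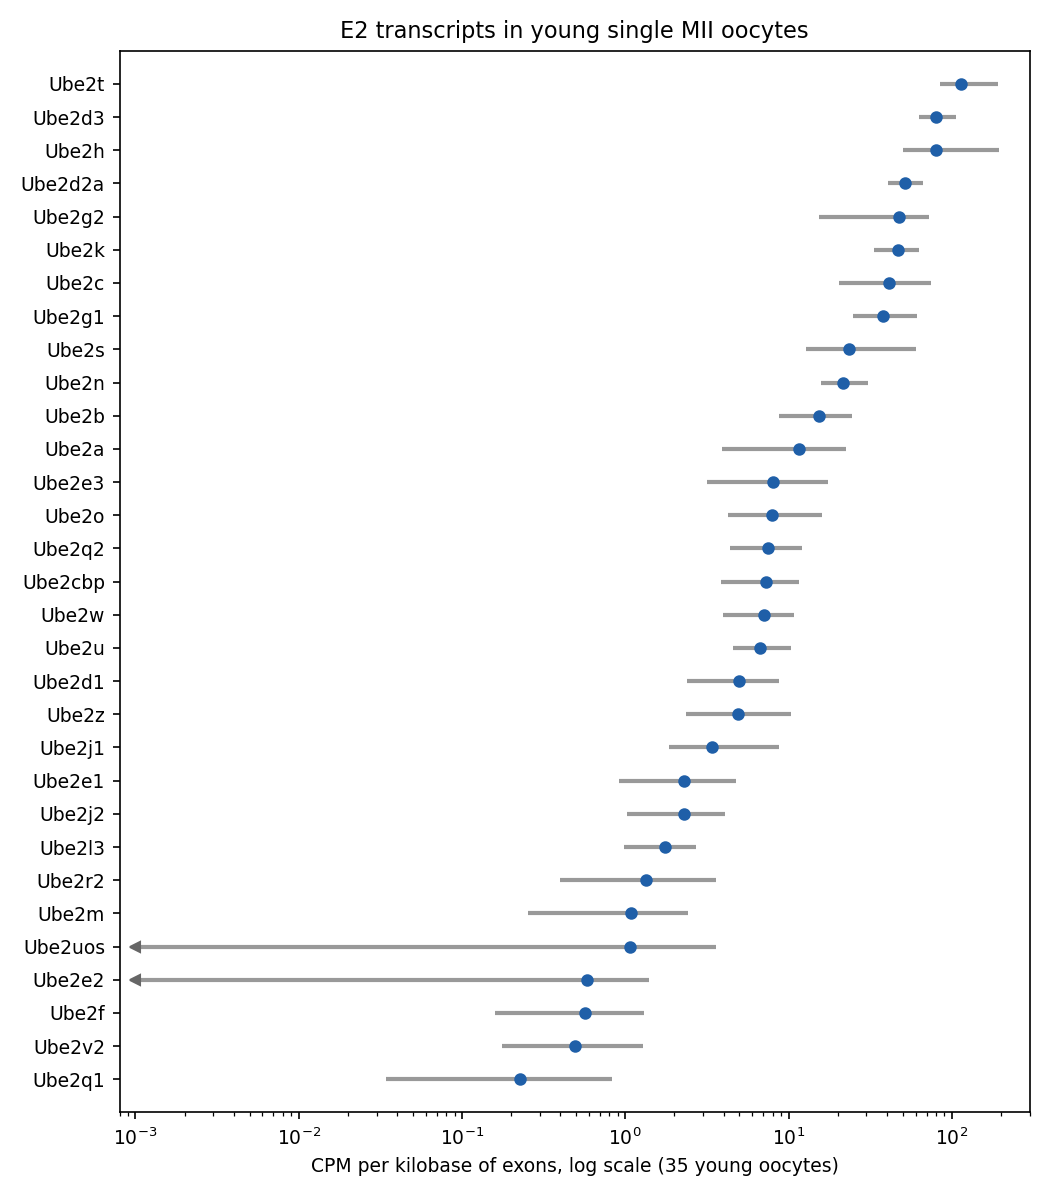
Levels of 31 E2 members in 35 young single MII oocytes, as CPM per kilobase of exons on a log axis; points are medians over oocytes, lines run from the lowest to the highest oocyte, and an arrow marks a lowest oocyte at 0. Medians run from 114 for Ube2t down to 0.226 for Ube2q1, and the ranges of neighbouring genes overlap; the members with a median of 0 are not drawn.

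The order depended in part on the gene length used. With the longest transcript of each gene the same 8 members led. With 1 reference transcript per gene Ube2d3 came first, and 7 of the 8 remained, with Ube2s in place of Ube2g2. By counts alone, without length, Ube2d3 made up 38.0% of all E2 counts in young oocytes, Ube2d2a 11.6% and Ube2t 11.1%, together 60.7%.

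The 3′ ends of the leading members are shown because oocytes lengthen and shorten the poly(A) tails of stored mRNAs during meiotic maturation, and the method captured RNA through that tail. The cytoplasmic polyadenylation element, written in DNA letters as TTTTAT or TTTTAAT, was searched on the sense strand of the last 150 bases of the 3′ UTR of the GENCODE reference transcripts; TTTTAAT can share letters with the poly(A) signal AATAAA. It was found in 5 of 34 members with an annotated 3′ UTR of at least 50 bases (14.7%), against 22.1% of 20110 genes. They included Ube2t, Ube2d3, Ube2g2 and Ube2q2, the first 3 of these among the 8 leading members. Each window below has 30 bases of GRCm38, 5′ to 3′ on the transcribed strand, with the element in capitals.
Ube2t (chr1:134974081-134974110, plus strand): aaggatagtttgTTTTATttatcttgtaca
Ube2d3 (chr3:135468063-135468092, plus strand): atttgtctcctaTTTTATgaggaacccaat
Ube2g2 (chr10:77645882-77645911, plus strand): aaaacaaagtatTTTTATtcatttgtattt
Ube2q2 (chr9:55207427-55207456, plus strand): ttttttttttgaTTTTATttttcattgcag

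Ube2d2a, a leading member whose 3′ end is not shown, had no such element in that window. Neither did Ube2c, Ube2s, Ube2h and Ube2k. For these the poly(A) signal AATAAA, which directs cleavage of the transcript, is in capitals below. It or its variant ATTAAA lay in the last 50 bases in 88.2% of members and 75.4% of all genes. Which of the annotated 3′ ends the oocytes used was not measured.
Ube2c (chr2:164772866-164772895, plus strand): caatgtatattaAATAAAtacacattgatt
Ube2s (chr7:4808016-4808045, minus strand): tttggttttctaAATAAAaagttggaaaag
Ube2h (chr6:30211298-30211327, minus strand): taaacttttttaAATAAAatgtgtatatac
Ube2k (chr5:65598952-65598981, plus strand): ggaattcttaaaAATAAAtgcatgcacatt

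Oocytes of the young sample differed little in their E2 total, which lay between 4566 and 6646 CPM with a median of 5253. Ube2d2a and Ube2d3 varied least between oocytes among the leading members, with coefficients of variation of 11.2% and 12.5%. Ube2s varied by 45.3% and Ube2h by 37.3%. Counting alone would give 3.01% and 1.66% if reads were independent, a lower limit because PCR reads are not independent molecules. These variable members were lower in the more deeply sequenced young libraries. Across the 35 young oocytes, CPM of Ube2h had a Pearson correlation of -0.72 with the total count of the same library, and that of Ube2s -0.56. Ube2s and Ube2h also went together over young oocytes (Pearson 0.67), as points that share library and depth. For the APC/C partners Ube2c and Ube2s the correlation was -0.20.

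Of the 40 members, 30 had counts in all 35 young oocytes. Members of the Lys63 pathway were uneven: Ube2n, the catalytic subunit, had a median of 21.5 CPM per kb, whereas its catalytically inactive partner Ube2v2 had 0.493, and the other partner Ube2v1 had counts in 6 of 35 oocytes. For Ube2v1, 69.1% of the exon bases overlap other genes, so its counts are uncertain. The NEDD8 enzymes Ube2m and Ube2f had medians of 1.08 and 0.569 CPM per kb.

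Members listed at 0 in all 94 oocytes were Ube2d2b, an intronless Ube2d relative, and the pseudogene Ube2d4. For each, 0 of 35 young oocytes with a count allows a share of up to 8.57%, and 0 of all 94 allows up to 3.19%. Ube2l6, the interferon-induced E2 of ISG15, was detected in 0 of 35 young and 1 of 59 aged oocytes, where 1 library of high mitochondrial share held all 57 counts. The X-linked copies Ube2dnl1 and Ube2dnl2 had counts in 9 and 1 young oocytes, Ube2nl in 7 and Ube2ql1 in 12. The antisense Ube2uos had counts in 33 young oocytes. Reads of the near-identical Ube2d copies, and of a gene and its antisense partner, may have been divided by the counting in ways that the files do not show.

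After knockdown of Plat in young oocytes, 0 of the 32 members changed by the edgeR quasi-likelihood test at a Benjamini-Hochberg adjusted p under 0.05, where 3.54% of the 11136 genes tested did. All 32 passed the filter on low counts. At an unadjusted p under 0.05, 7 members (21.9%) stood out, against 18.8% of all genes; 6 of the 7 were higher in siPlat. DESeq2 called 2 members, Ube2d1 and Ube2e3, against a background of 6.09%, and limma-voom called 0. The median log2 fold change of the members was 0.25, beside -0.03 for all genes. Above 0 were 22 members and below it 10, where 47.8% of all genes were above 0. The members share these pools and are no independent replicates. In 14 members both siPlat pools lay above both siCtrl pools, and in 4 below, together 18 of 32 members without overlap, where 23.5% and 25.8% of all genes did so (49.4% together). In pools, fewer cells carrying a transcript and less of it per cell cannot be told apart.

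**Figure D2:**
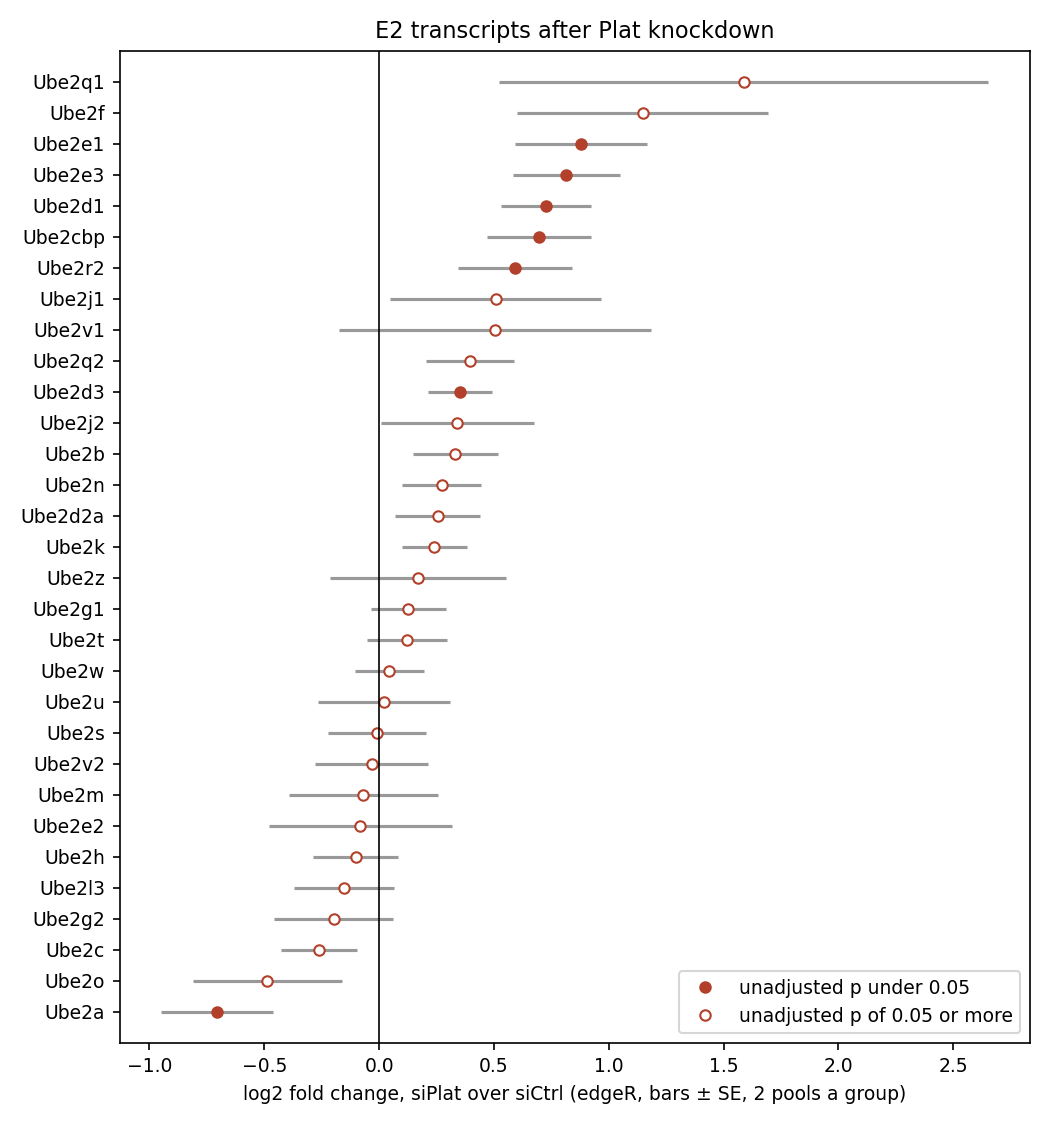
Log2 fold change of 31 E2 members, siPlat over siCtrl, by edgeR with bars of 1 standard error and 2 pools a group; filled points have an unadjusted p under 0.05. The points run from -0.71 (Ube2a) to 1.59 (Ube2q1), and 0 pass the adjusted threshold.

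The smallest adjusted p-values among the members belonged to Ube2d1 and Ube2e3, broad-range enzymes. Ube2d1 stood at 39.3 and 33.8 CPM in the siCtrl pools and at 56.2 and 64.6 CPM in the siPlat pools, a log2 fold change of 0.73 ± 0.20 (SE, edgeR adjusted p = 0.0708). The pools of Ube2d1 did not overlap, and its call depended on the procedure: the adjusted p was 0.0262 by DESeq2, 0.0465 by edgeR without the expression filter and 0.0173 by edgeR without siPlat replicate 1, but 0.227 and 0.428 without siCtrl replicate 1 or 2. Ube2e3 stood at 17.2 and 23.9 CPM against 36.9 and 35.5 CPM, a log2 fold change of 0.82 ± 0.23 (SE; edgeR, adjusted p = 0.0826; 0.0412 by DESeq2 and 0.0397 by edgeR without siPlat replicate 2, but 0.489 and 0.137 without siCtrl replicate 1 or 2). Ube2e1 stood at 12.2 and 12.9 CPM against 17.3 and 28.7 CPM, a log2 fold change of 0.88 ± 0.29 (SE; edgeR, adjusted p = 0.126). The siPlat pools of Ube2e1 were far apart, and without siPlat replicate 1 its adjusted p by edgeR was 0.00975, but without siPlat replicate 2 it was 0.388, at a log2 fold change of 0.48, and without siCtrl replicate 1 or 2 it was 0.407 or 0.371. Ube2e1 shares 16.1% of its exon bases with other genes. Ube2cbp stood at 16.07 and 18.01 CPM against 26.8 and 28.4 CPM (0.70 ± 0.23 SE, edgeR adjusted p = 0.125). Ube2r2, which extends chains on targets of SCF ligases, stood at 12.7 and 13.4 CPM against 19.2 and 19.9 CPM (0.59 ± 0.25 SE, edgeR adjusted p = 0.229).

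The other broad-range members spread from -0.08 (Ube2e2) to 0.35 (Ube2d3) on the log2 scale. Ube2d3, the most counted member, stood at 2593 and 2324 CPM in siCtrl and at 2976 and 3299 CPM in siPlat, with no overlap (log2 fold change 0.35 ± 0.14 SE, edgeR adjusted p = 0.199). With it, the E2 total was 6070 and 5769 CPM in siCtrl and 7067 and 7036 CPM in siPlat. The Rad6-type enzymes, which ubiquitinate histone H2B and the clamp PCNA, lay on either side of 0. Ube2a, whose loss in mouse mothers is known to stop early embryos, stood at 25.9 and 36.7 CPM in siCtrl and 18.3 and 20.0 CPM in siPlat (log2 fold change -0.71 ± 0.24 SE, edgeR adjusted p = 0.142). Ube2b, its autosomal copy, stood at 60.6 and 62.0 CPM against 83.3 and 71.2 CPM (0.33 ± 0.18 SE, edgeR adjusted p = 0.367).

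Neither APC/C enzyme passed the test. Ube2c stood at 301 and 342 CPM in siCtrl and at 291 and 246 CPM in siPlat (log2 fold change -0.26 ± 0.16 SE, edgeR adjusted p = 0.436). Ube2s stood at 121 and 92.2 CPM against 87.9 and 124 CPM, with overlapping pools (log2 fold change -0.01 ± 0.21 SE, edgeR adjusted p = 0.989). Of other leading members, Ube2t had a log2 fold change of 0.12, Ube2h -0.10, Ube2k 0.24, Ube2d2a 0.25 and Ube2g2 -0.20, each with an adjusted p of at least 0.402 by edgeR. The directions of Ube2s, Ube2h and Ube2t turned with the leaving out of a pool, and that of Ube2s also with the size factors of DESeq2. Values above 1 on the log2 scale were seen in the NEDD8 enzyme Ube2f (1.15 ± 0.55 SE) and the atypical Ube2q1 (1.59 ± 1.07 SE), which were at most 5.95 and 1.41 CPM in any pool. With a siCtrl pool left out these ran from 0.62 (without replicate 1) to 1.95 (without replicate 2) for Ube2f, and from 3.18 to 0.89 for Ube2q1.

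The rest of the conjugation pathway was represented by lists of named genes. In siPlat, 0 of 4 ubiquitin genes and 0 of 8 E2s with other names, such as Cdc34, passed the edgeR test, which 3.54% of all genes tested passed. Among 8 E1 enzymes, 1 fell: Uba6, which activates ubiquitin and hands it to Ube2z, stood at 61.8 and 71.7 CPM in siCtrl and at 34.1 and 33.5 CPM in siPlat (log2 fold change -0.98 ± 0.19 SE, edgeR adjusted p = 0.0221). Ube2z itself had a log2 fold change of 0.17 ± 0.38 (SE).

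Against the same background of 3.54%, 1 of 38 E3 partners tested rose: Ypel5, a CTLH subunit that works with Ube2h, went from 1921 and 1820 CPM to 3228 and 2734 CPM, a log2 fold change of 0.67 ± 0.14 (SE; edgeR, adjusted p = 0.0277). Of 19 deconjugating enzymes, 1 rose: Uchl1, an abundant oocyte ubiquitin hydrolase, went from 629 and 623 CPM to 1077 and 962 CPM (0.70 ± 0.14 SE, edgeR adjusted p = 0.0257). For these 3 genes (Uba6, Ypel5 and Uchl1) the pools of the groups did not overlap. With siCtrl replicate 1 or 2 left out, none of the 3 passed by edgeR, the adjusted p then lying between 0.0658 and 0.165 for Uba6, 0.199 and 0.280 for Ypel5, and 0.217 and 0.232 for Uchl1.

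For the ages, each group was 1 sample of single oocytes, so there was no test. Counts summed over oocytes were set side by side, and 1.5-fold on the log2(CPM + 1) scale was taken as the size worth naming, over genes with a mean of at least 5 CPM. With all 59 aged oocytes, 6 of 26 members passed that size, where 18.8% of 8303 genes did; 2 were higher and 4 lower, beside 9.45% and 9.38% of genes. Without the 21 libraries of high mitochondrial share, 5 of 27 members passed it, where 10.7% of 8413 genes did. Relative to all gene counts, Ube2b, Ube2w and Ube2c were higher in these aged oocytes (8.87% of genes were), and Ube2s and Ube2h were lower (1.87% of genes were). Scaled to the ERCC spike-ins, synthetic RNAs added to the lysate, Ube2b and Ube2w differed from young by 0.08 and 0.05 on the log2 scale without the 21 libraries and lay below young with them (-0.79 and -0.60), and Ube2c lay below young by either set (-0.24 and -1.30). By gene counts the median member lay at 0.08 on the log2 scale without the 21 libraries, and so did the median gene, which ERCC scaling moved to -0.73. Relative to that median gene, the ratio by gene counts was 0.82 for Ube2b, 0.79 for Ube2w and -0.89 for Ube2h. ERCC scaling shifts every gene by the same amount, apart from the added 1 CPM. It therefore had to leave these differences nearly unchanged and is no test of them.

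**Figure D3:**
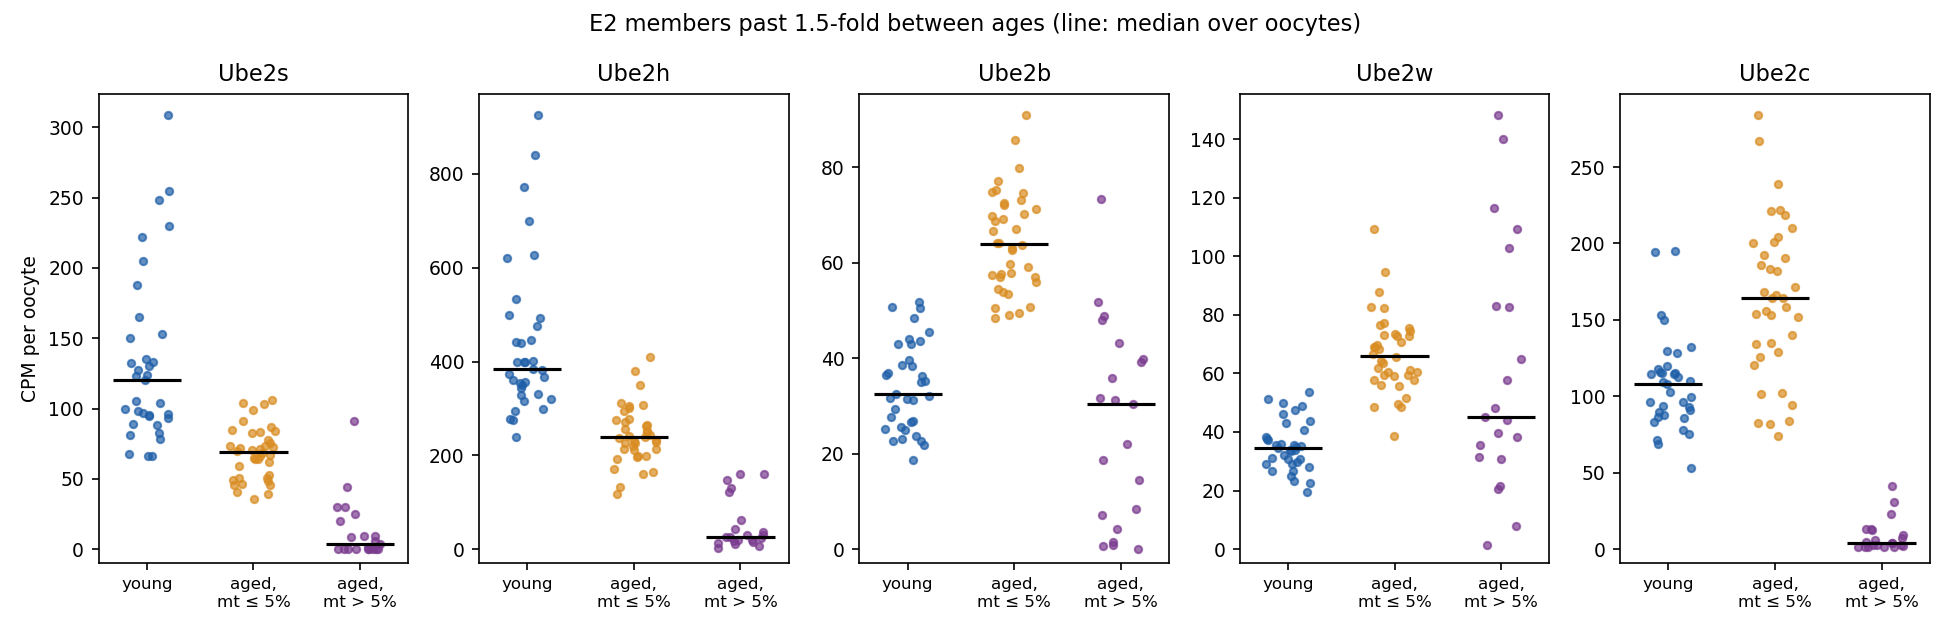
CPM per oocyte of Ube2s, Ube2h, Ube2b, Ube2w and Ube2c in 35 young oocytes, 38 aged oocytes with a mitochondrial (mt) share of at most 5% and 21 aged oocytes above it; each point is an oocyte and each line the median. Medians of Ube2s and Ube2h are lower in the 38 aged oocytes than in the young and those of Ube2b, Ube2w and Ube2c higher as shares of gene counts; per ERCC count the log2 ratios of summed counts are 0.08 for Ube2b, 0.05 for Ube2w and -0.24 for Ube2c.

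The APC/C enzymes differed in opposite directions between the ages as shares of gene counts. Ube2s had a lowest, median and highest oocyte of 66.2, 120 and 309 CPM in the young and of 36.0, 68.9 and 106 CPM in the 38 aged oocytes. All 38 lay below the young median and 17 below the young minimum, and 18 of 35 young oocytes exceeded the aged maximum. The summed level was 128 CPM (95% Poisson interval 126 to 129) in the young and 67.0 CPM in the 38 aged oocytes, a log2 ratio of -0.92 (-1.24 with all 59). Ube2c had 53.1, 108 and 195 CPM in the young and 74.1, 164 and 284 CPM in the 38 aged oocytes, with 31 of them above the young median and 10 above its maximum. Its log2 ratio was 0.59, or 0.17 with all 59, and it turned to -0.24 per ERCC count.

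Ube2h had a lowest, median and highest oocyte of 240, 383 and 925 CPM in the young and of 118, 238 and 410 CPM in the 38 aged oocytes, of which 37 lay below the young median and 20 below its minimum. The log2 ratio was -0.81, and -1.14 with all 59. Sequencing depth moved with these values. Against the 18 deeper young libraries, of at least 8564642 counts, the log2 ratios were -0.62 for Ube2s, -0.55 for Ube2h and 0.55 for Ube2c, the last 2 under 1.5-fold. Against the 17 shallower ones they were -1.25, -1.10 and 0.66. The 38 aged libraries held 3399781 to 9502184 counts, the young 5480050 to 11894782.

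Of the 5 members, Ube2b and Ube2w overlapped least between the ages. Ube2b had a lowest, median and highest oocyte of 18.7, 32.5 and 51.8 CPM in the young and of 48.5, 63.9 and 90.9 CPM in the 38 aged oocytes, and 33 of the 38 exceeded the young maximum. Ube2w, which attaches ubiquitin to the amino terminus of proteins, had 19.5, 34.7 and 53.6 CPM in the young and 38.8, 66.0 and 109 CPM in the aged, again with 33 of 38 above the young maximum. The log2 ratios were 0.90 and 0.87 as shares of gene counts, while per ERCC count they were 0.08 and 0.05. By gene counts they were 1.05 and 0.85 against the 18 deeper young libraries, and 0.72 and 0.90 against the 17 shallower ones. CPM of Ube2b had a Pearson correlation with the total count of -0.47 in the young and -0.49 in the 38 aged oocytes. For Ube2w these correlations were 0.21 and -0.34. Gene counts per ERCC count had a median of 63.7 in the young and 29.5 in the 38 aged oocytes, and whether RNA content or spike-in amount moved was not measured. Ube2a, the close relative of Ube2b, had a log2 ratio of 0.17, and Ube2d3 and Ube2d2a had -0.13 and -0.05.

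With all 59 aged oocytes, Ube2g2 and Ube2l3 also passed 1.5-fold, with log2 ratios of -0.70 and -0.66, but not without the 21 libraries (-0.29 and -0.47). Ube2l3, the partner of RBR and HECT ligases, shares 28.6% of its exon bases with other genes. The ranges of the E2 total per oocyte overlapped, at 4608 to 6151 CPM in the 38 aged oocytes and 4566 to 6646 CPM in the young. In the pathway lists without the 21 libraries, by gene counts, 3 of 35 E3 partners were more than 1.5-fold higher (Huwe1, Rnf40 and Skp1a) and 3 of 18 deconjugating enzymes (Cops5, Uchl5 and Usp14), with 0 lower in either, beside 8.87% of all genes higher and 1.87% lower. The mean of at least 5 CPM was reached by 2 of 4 ubiquitin genes, 7 of 9 E1 enzymes, 7 of 8 other E2s and 6 of 8 ubiquitin-like modifiers. None of these passed the size in either direction, and the remaining listed genes were not compared.

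The 21 aged libraries of high mitochondrial share held a different mix of E2 transcripts. Here 4-fold against the other 38 aged oocytes was taken as the size worth naming, since the median gene lay 0.94 lower on the log2 scale; 6 of 25 members were lower by that much and 0 higher, where 29.2% of 8087 genes passed it (27.8% lower and 1.37% higher). The 6 were Ube2t, Ube2c, Ube2o, Ube2g2, Ube2u and Ube2h, by summed gene counts. With totals without mitochondrially encoded genes, 5 of 26 were lower by that much, without Ube2h, beside 20.4% of genes. By median CPM over oocytes it was 9 of 23, with Ube2d3, Ube2e1 and Ube2s added, beside 44.1%. With ERCC scaling it was 14 of 25, beside 59.6%. No member was higher by that much in any of these settings. The E2 total per oocyte spread from 769 to 7749 CPM in the 21. These libraries also detected fewer genes, 7385 to 13849 against 14724 to 17623, and fewer E2 members, 20 to 31 (median 25) against 31 to 34 (median 33).

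**Figure D4:**
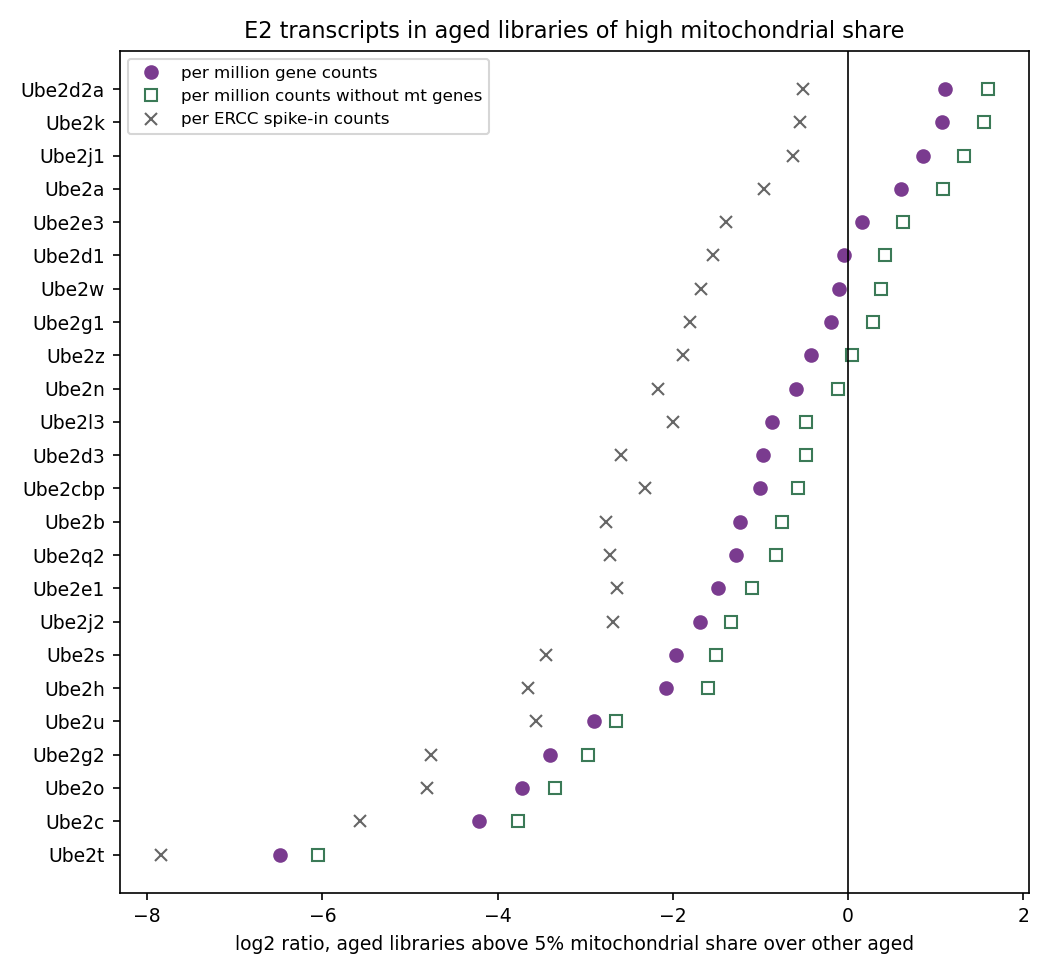
Log2 ratio of 24 E2 members in the 21 aged libraries above 5% mitochondrial share over the other 38, with counts summed over oocytes and scaled to all gene counts (filled circles), to gene counts without mitochondrially encoded genes (squares) or to ERCC counts (crosses). By gene counts the ratios run from -6.49 (Ube2t) to 1.11 (Ube2d2a), and by ERCC counts all lie below 0. Each scaling shifts all ratios by the same amount, apart from the pseudocount of 1 CPM, so the order is alike by construction.

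Ube2t, which had the highest median CPM per kb of annotated exons in young oocytes, was nearly missing from the 21 libraries. Its lowest, median and highest values were 405, 768 and 1474 CPM in the 38 aged oocytes and 0, 4.89 and 39.7 CPM in the 21, a log2 ratio of -6.49. Ube2c went from 74.1, 164 and 284 CPM to 1.08, 3.73 and 41.0 CPM (log2 ratio -4.21). Ube2o, a large enzyme that combines E2 and E3 activity, and the little-studied Ube2u had log2 ratios of -3.72 and -2.89. For these 4 members all 21 libraries lay below the lowest of the other 38. The share of all genes that did so was not counted, so this is not a trait of the E2 members. By summed counts, 27.8% of genes were at least 4-fold lower.

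Ube2d2a and Ube2k stood at the other end. Ube2d2a had 425, 586 and 736 CPM in the 38 aged oocytes and 79.4, 996 and 2620 CPM in the 21, with 16 of the 21 above the maximum of the 38 (log2 ratio 1.11). Ube2k had 301, 400 and 614 CPM against 332, 802 and 1500 CPM, with 19 of 21 above (log2 ratio 1.07). ERCC scaling shifts all ratios alike, apart from the pseudocount, so it nearly keeps their order. By it all 25 members were lower in the 21 libraries, Ube2d2a and Ube2k least, and the highest ratio was -0.51. As a share of the E2 total, Ube2d2a took 31.9% and Ube2t 0.198% in the 21 libraries, where they took 11.3% and 15.2% in the other 38.

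Over 25 members, the log2 ratio between the 21 and the 38 libraries had a Spearman correlation of 0.02 with the CPM in young oocytes. With the length of the annotated 3′ UTR it was 0.39 over 24 members, which share the libraries and are no independent replicates. Of the members shown above with a polyadenylation element, Ube2t and Ube2g2 were among the lowest by summed counts (-6.49 and -3.40). By the same measure Ube2q2 and Ube2d3 lay near the median (-1.27 and -0.97). The libraries of Ube2d3 were divided, however: 15 of the 21 lay below the lowest of the other 38 and 5 above the highest. By median CPM over oocytes its log2 ratio was -3.33 and that of Ube2q2 -1.40, where the median gene lay at -1.63. Ube2c, which had no such element in the window, lay between Ube2t and Ube2g2 at -4.21. Ube2d2a, also without the element, had the highest ratio at 1.11.

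Levels in the siCtrl pools and in the untreated single oocytes of young mice came from separate tables and are set side by side without a test. Ube2w stood at 323 and 300 CPM in the siCtrl pools and at 19.5 to 53.6 CPM in the 35 young single oocytes. Ube2c stood at 301 and 342 CPM against 53.1 to 195 CPM. Ube2g2 went the other way, at 16.0 and 14.9 CPM in the pools against 37.6 to 175 CPM. For Ube2d3, 2593 and 2324 CPM stood beside a single-oocyte range of 1534 to 2586 CPM, and for Ube2t 585 and 476 CPM lay within 409 to 923 CPM. The pool table held 0 mitochondrially encoded genes, and treatment, pooling and table cannot be told apart here.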

How the data were processed

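Raw read counts per gene were deposited by the authors as 1 table of 4 pools and 1 of 94 single oocytes; the latter's 92 ERCC entries stayed out of totals. Per the submitters' processing notes, STAR 2.7.10b, HTSeq 0.13.5 and mm10 were used. Their annotation, filters and strand setting are not given in the sources used here; reads of genes that overlap, antisense ones included, may thus be mixed. Members and gene lists were chosen with earlier results of these data known.

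Pools were tested with edgeR 4.0.16 (robust quasi-likelihood, TMM, minimum count 10 and total 15, Benjamini-Hochberg adjusted p under 0.05) in R 4.3.3. The SE is the log2 fold change over the root of F. Pool CPM are after TMM scaling. In simulated data of this comparison over 10778 genes, 54 of 100 genes changed 2-fold and 95 of 100 changed 4-fold were recovered, with 8 false calls and 0 where nothing changed. The changed genes were drawn only from those with a mean above 5 CPM. Recovery was therefore not simulated for members of lower counts, such as Ube2q1 and Ube2f. Alternatives were DESeq2 1.42.0, its size factors in edgeR, limma-voom (limma 3.58.1), no filter, a replicate block and each pool left out. Replicates of a group differed beyond sampling noise (chi-square per degree of freedom 16.6 and 25.5), so none was merged.

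Single-oocyte counts were summed and given as CPM of gene counts with exact Poisson intervals (95%), log2 ratios with a pseudocount of 1 CPM, and limits of 3 counts for a share of 0; all cover counting error only, as PCR reads are not independent molecules. Libraries above 5% mitochondrial share were given apart. Named were members called in the pools, the 8 with the highest median CPM per kb, those past 1.5-fold between ages without these libraries, Ube2c, Ube2s and members listed at 0; others were named after their values were seen. For 1 member and 1 gene of the lists the values are not reported here. Positions, lengths, 3′ UTRs and sequences came from GENCODE vM21 (GRCm38).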

Additional observations from a re-analysis of the deposited data

Results flagged for a closer look

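The pseudogene names that the rule left out carried counts in the single-oocyte table. Ube2d-ps had 611 counts over the young oocytes (2.01 CPM, and 3.19 CPM in the aged), above the 3 counts taken as the limit of a listed 0. Ube2n-ps1 had 145 counts (0.478 CPM in the young and 0.544 CPM in the aged). In the pools Ube2d-ps stood at 15.3 and 18.6 CPM in siCtrl and at 40.6 and 28.6 CPM in siPlat, and was called (log2 fold change 1.03 ± 0.25 SE, edgeR adjusted p = 0.0471). The call was lost by edgeR without siCtrl replicate 1 (adjusted p = 0.272), siCtrl replicate 2 (0.123) or siPlat replicate 1 (0.120), where the log2 fold change lay between 0.75 and 1.17. It is a near copy of the Ube2d genes, and how the counting divided reads between the copies was not measured.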

How the results depend on the processing

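In the pools, the count of called E2 members was 0 in the reported edgeR fit, 2 by DESeq2, 1 without the expression filter, and 0 to 3 with 1 pool left out (Ube2d1, Ube2e1 and Ube2q2 without siPlat replicate 1, Ube2e3 without siPlat replicate 2), where the lone pool is assumed to vary like the other group. Over all genes it was 394 by edgeR, 678 by DESeq2, and 157 to 1145 with 1 pool left out (713 without siPlat replicate 1, 1145 without siPlat replicate 2, 157 and 160 without siCtrl replicate 1 or 2). With a replicate block the counts were 0 members and 273 genes, and the adjusted p of Ube2d-ps by edgeR was 0.0798. Same-numbered pools deviated with a correlation of -0.10. With 2 pools a group this correlation cannot show whether the numbers mark a shared batch. The reported fit took the number as a name only. The log2 fold change of Ube2s turned to 0.0026 with DESeq2's size factors or DESeq2, and lay between -0.266 and 0.211 with a pool left out. Leaving out a pool also turned Ube2h (-0.265 to 0.0882) and Ube2t (-0.0766 to 0.306). The causes were not tested.

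Between the ages, 6 of 26 members passed 1.5-fold with all oocytes, beside 18.8% of genes. With ERCC scaling 26 of 26 members did, beside 95.8% of genes. With ERCC scaling and without the 21 libraries it was 21 of 27, beside 65.8%. The median log2 ratio of the members was -0.0414 with all oocytes, 0.0791 without those libraries, -0.0617 by median and -0.165 by mean CPM over oocytes, 0.0769 with totals without mitochondrially encoded genes and -0.0276 with a filter at 1 CPM. It was -1.48 with ERCC scaling, and without those libraries 0.0402 by median CPM and -0.74 with ERCC scaling. ERCC scaling of all oocytes turned Ube2b to -0.79 and Ube2w to -0.60. Mean CPM put Ube2k in place of Ube2b among the 6. The division of the young by depth, the reference transcript length and the settings that join 2 choices were chosen after seeing the data. With 2 pools a group and 1 sample an age, small differences were not detectable.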

Other observations

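Variation between oocytes differed between the ages for some E2 members. The coefficient of variation of Ube2s was 45.3% over 35 young and 27.3% over the 38 aged oocytes of low mitochondrial share, and that of Ube2h 37.3% and 25.3%. Ube2b had 27.3% in the young and 16.2% in those aged oocytes. Ube2g2 went the other way, with 29.5% and 40.2%. Ube2d2a and Ube2d3 were steady in both, at 11.2% and 12.5% in the young and 10.8% and 14.3% in the aged. Ube2c and Ube2t went together over the 38 aged oocytes (Pearson 0.62) and not over the young (0.06), values from oocytes of 1 sample each and without a test.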
